A study of Homo sapiens with 6 samples.

Results

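PTPRZ1, the gene of receptor-type tyrosine phosphatase zeta, was examined together with 7 other receptor tyrosine phosphatases (PTPRF, PTPRK, PTPRM, PTPRG, PTPRS, PTPRJ and PTPRE) and the secreted ligands pleiotrophin (PTN) and midkine (MDK) in breast epithelial cells given extra MBD2. The genes were chosen by the decrease of the PTPRZ1 value between the control and MBD2 arrays, so the values of PTPRZ1 are a description and carry no test. Every probe set was kept whose annotation on the platform gave exactly 1 symbol, and that symbol was one of these 10 genes. This gave 25 of the 41091 probe sets with a single symbol, for 9 of the 19775 genes measured. PTPRZ1 and MDK had 1 probe set each, PTPRK and PTPRM had 2, PTPRE had 3, and PTPRF, PTPRG, PTPRS and PTN had 4. PTPRJ was not analysed here. A probe set is a group of short oligonucleotide probes on the array that together give 1 value for a transcript.

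The study used MCF-10A, an immortalized breast epithelial line that is not transformed, grown in mammary epithelial basal medium. Total RNA was hybridized to Affymetrix U133 Plus 2.0 arrays, 3 from control cells and 3 from cells that had received a lentivirus encoding MBD2, a protein that binds methylated CpG. The lentivirus is taken from the study's methods, while the treatment label of these arrays reads MBD2 transfection. The virus was packaged in HEK293 cells, and the promoter driving MBD2 is not given in the sources used here. The labels call the controls non-infected and the replicates technical, while the study's methods describe an empty virus and biological replicates. The same methods also speak of an untreated control for the fold changes. An effect of infection and one of MBD2 thus cannot be told apart if the labels are right. Nothing in the labels places the arrays in separate cultures, and the p-values then measure only the spread between these arrays, which may be technical. The values are log2 intensities normalized by RMA, and a difference of 1 is a 2-fold change. Differences are always MBD2 minus control.

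Receptor tyrosine phosphatases cross the cell membrane once, carry adhesion-like domains outside the cell, and remove phosphate from tyrosines of proteins inside it. PTPRZ1 is made in large amount by glia, also as a proteoglycan with chondroitin sulfate chains, and PTPRG is its closest relative. Pleiotrophin binds PTPRZ1 and lowers its activity, which leaves substrates such as beta-catenin, FYN and adducin more phosphorylated, and midkine is the related growth factor. PTPRF (also called LAR) and PTPRS form a family that organizes cell contacts and synapses, and PTPRK and PTPRM bind their own kind on the neighbouring cell at epithelial junctions. PTPRE has a very short outer part and is also made as a cytosolic form.

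The promoters of the receptor PTPRZ1 and of its ligand PTN are shown because these are the genes with the largest decreases among the members and because the protein that was raised binds methylated CpG. Each sequence is the 250 bases before the RefSeq transcription start, 5′ to 3′ on the strand of the gene, from GRCh38.p14. Capitals mark every CpG. DNA methylation was not measured on these arrays.
PTPRZ1: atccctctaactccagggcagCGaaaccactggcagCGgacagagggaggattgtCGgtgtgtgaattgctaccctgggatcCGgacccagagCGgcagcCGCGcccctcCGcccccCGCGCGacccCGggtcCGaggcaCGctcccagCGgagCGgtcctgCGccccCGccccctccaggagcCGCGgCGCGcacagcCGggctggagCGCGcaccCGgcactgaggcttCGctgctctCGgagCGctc
PTN: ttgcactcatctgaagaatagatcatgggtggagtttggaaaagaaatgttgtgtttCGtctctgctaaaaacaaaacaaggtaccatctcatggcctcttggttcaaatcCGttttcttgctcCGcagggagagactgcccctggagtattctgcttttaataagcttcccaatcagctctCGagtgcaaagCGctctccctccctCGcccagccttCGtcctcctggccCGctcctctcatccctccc
The PTPRZ1 window lies at chr7:121872911-121873160 on the plus strand and holds 29 CpG (the letters CG, which read the same on both strands). The PTN window lies at chr7:137343734-137343983 on the minus strand and holds 8. Over 35116 such windows of all genes in the table the median was 11 CpG. Fewer than 29 were found in 85.9% of them, fewer than 8 in 43.7%, and at least 1 in 93.9%. The first windows of PTPRF, PTPRK, PTPRM, PTPRG, PTPRS and PTPRE hold 28 to 44 CpG. A further window of PTPRM holds 2, and further windows of PTPRE hold 4, 4 and 10. The PTPRZ1 count thus lies within the range of the first windows and that of PTN below it, but some further windows hold fewer than PTN.

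The transcript of MBD2 itself checks the labels. Its brightest probe set gave 8.92, 9.03 and 9.68 on the 3 control arrays and 12.17, 11.72 and 12.50 on the MBD2 arrays (difference 2.92, adjusted p = 0.0157 from limma). The other probe sets of the gene did not rise in this way and were not called. Their differences were -0.08, -0.03 and 0.11 (adjusted p = 0.805, 0.931 and 0.651 from limma). They were dimmer, between 2.92 and 4.83 on all 6 arrays, so the check rests on the brightest alone. The arrays within a group were not equally alike. Control arrays 1 and 2 differed by over 2-fold at 26 probe sets and MBD2 arrays 2 and 3 at 148, whereas control array 3 differed from control array 1 at 3037 and MBD2 array 1 from MBD2 array 2 at 5552. The bacterial transcripts added before hybridization averaged 9.94 and 10.01 on MBD2 arrays 2 and 3 and between 10.96 and 11.33 on the other 4. The 3′ minus 5′ signal of GAPDH, a sign of RNA quality, was 1.83 to 2.52 on control and 1.49 to 1.84 on MBD2 arrays. That of beta-actin was larger, 3.62 to 4.57 on control and 3.44 to 3.93 on MBD2 arrays. The 3′ ends thus gave more signal on every array, and its part in the differences was not tested. The measured markers of basal mammary epithelium (KRT5, KRT14, CDH3, ITGB4, ITGA6 and EGFR) lay between 8.04 and 14.37 on every array. The summed level of these 6 was 15.22 to 15.83 on control and 14.80 to 15.17 on MBD2 arrays, on the log2 scale. In the order named their differences were -1.26, -0.56, -1.14, 0.81, -0.35 and -0.41. Of the 19 basal probe sets 0 were called, with a median of -0.32. Before adjustment limma gave p below 0.05 for 7 lower and 2 higher, against 8.05% and 8.49% of all probe sets. Of 8 luminal markers PGR was near background on all 6 arrays. KRT8 held the only call among their 22 probe sets (difference 2.02, adjusted p = 0.0478 from limma), and the median over these probe sets was -0.07. KRT18 had 1.66, and ESR1, GATA3, FOXA1, KRT19 and ELF5 had -0.51 to -0.05. Near background means within 0.5 log2 units of the highest value, 3.67, of the control probe sets for tryptophan synthase, a bacterial transcript.

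PTPRZ1 was lower on every MBD2 array than on every control array. Its probe set 204469_at gave 10.59, 10.53 and 10.01 on control arrays 1, 2 and 3 and 7.62, 8.28 and 7.71 on MBD2 arrays 1, 2 and 3. The lowest control lay 1.73 log2 units above the highest MBD2 array. Control arrays averaged 10.38 ± 0.32 (SD, n = 3) against 7.87 ± 0.36 (SD, n = 3) with MBD2, a 5.69-fold decrease (difference -2.51). All 6 values stood well above the background level. In these bulk RNA values, fewer cells that make PTPRZ1 and less of its RNA per cell cannot be told apart. A total of 160 of the 41091 probe sets had a larger decrease. Each MBD2 array showed the decrease by itself, by 2.76, 2.10 and 2.67 log2 units from the control mean. Unlike most other receptors of the group, PTPRZ1 did not have its highest MBD2 value on array 1, which held its lowest value. Between control arrays 1 and 2 and MBD2 arrays 2 and 3, the closely similar pairs, the difference was -2.57. Markers of glia, in which PTPRZ1 is best known, were measured for 6 genes. OLIG1 and S100B were near background on all 6 arrays, GFAP lay between 5.52 and 5.89 on all of them, and SOX10, a transcription factor of glia, between 5.99 and 6.40, with the MBD2 arrays all below the controls (difference -0.22, adjusted p = 0.376 from limma). MBP, a myelin gene with transcripts in other cells, lay higher on the scale (9.38, 9.40 and 9.52 on control and 8.15, 8.91 and 8.42 on MBD2 arrays).

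**Figure D1:**
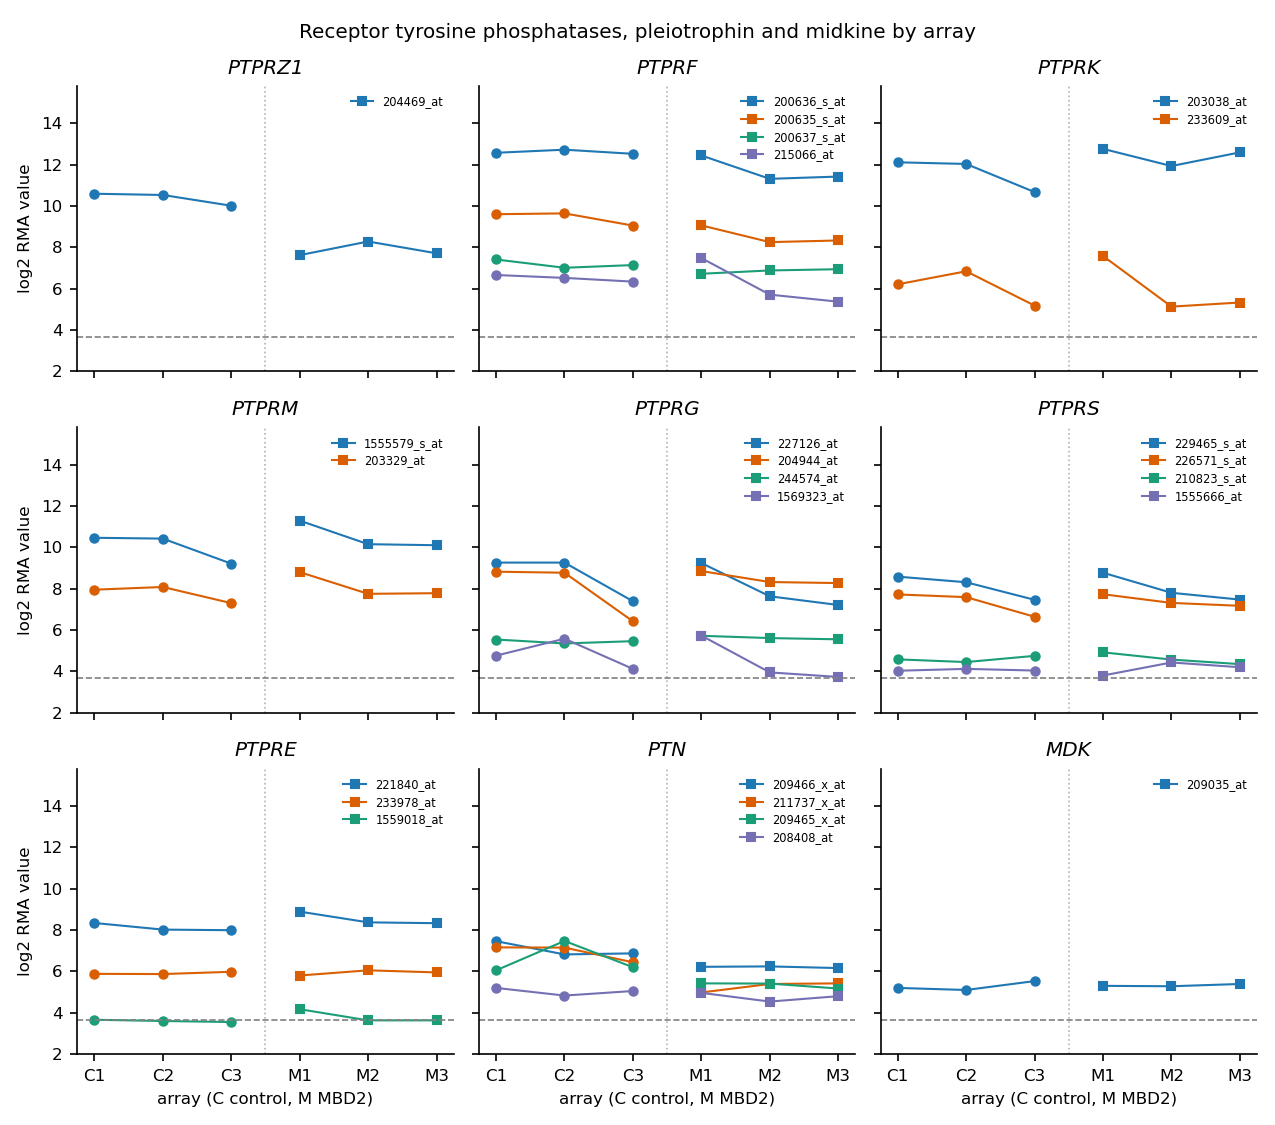
Log2 RMA values (vertical axis) of the 25 probe sets of the 9 measured genes on control arrays (C1 to C3, circles) and MBD2 arrays (M1 to M3, squares), with 1 colour per probe set and a dashed line at the highest value of the tryptophan synthase controls, 3.67. Lines only join the points of a probe set within a group. PTPRZ1 lies between 10.01 and 10.59 on control and between 7.62 and 8.28 on MBD2 arrays, and both PTPRK curves and 3 of the 4 PTPRG curves have their lowest control at C3.

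Pleiotrophin was measured by 4 probe sets, and 3 of them were lower on every MBD2 array than on every control array. For 211737_x_at the values were 7.16, 7.15 and 6.44 on control and 4.98, 5.39 and 5.42 on MBD2 arrays. The groups are 1.02 log2 units apart at their closest. Control arrays averaged 6.92 ± 0.41 (SD, n = 3) against 5.26 ± 0.24 (SD, n = 3) with MBD2, a 3.14-fold decrease (difference -1.65, standard error 0.24, adjusted p = 0.0393 from limma). Among the 24 member probe sets besides that of PTPRZ1, it alone was called, which required both a change of 1.5-fold or more and an adjusted p below 0.05. For 209465_x_at the values were 6.05, 7.47 and 6.20 on control and 5.42, 5.41 and 5.17 on MBD2 arrays (difference -1.24, adjusted p = 0.199 from limma). For 209466_x_at they were 7.46, 6.82 and 6.87 on control and 6.22, 6.24 and 6.16 on MBD2 arrays (difference -0.84, adjusted p = 0.0998 from limma). Both were thus lower in all 3 MBD2 arrays without passing the test. The 3 names end in _x_at, the array's mark for probes that can also bind other transcripts. The 1 probe set without that mark, 208408_at, was dimmer and its groups overlapped, with 5.20, 4.83 and 5.05 on control and 4.96, 4.54 and 4.80 on MBD2 arrays (difference -0.25, adjusted p = 0.483 from limma). The probe sets of PTN therefore disagree in size by over 1.5-fold. The call of 211737_x_at was lost in 4 of the fits that left out a single array. Its adjusted p from limma was 0.169, 0.171, 0.128 and 0.16 without control array 1, control array 2, MBD2 array 2 and MBD2 array 3. In these 4 fits the lower calls among all probe sets also fell, from 402 to 20, 18, 67 and 37. Over all fits without a single array its difference ran from -1.89 to -1.51 and its adjusted p from limma from 0.0178 to 0.171. With the closely similar arrays averaged it was 0.537, and with arrays blocked by hybridization signal it was 0.0637 (difference -1.93).

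Midkine, the other ligand, was close in level on all arrays. Its probe set 209035_at gave 5.20, 5.10 and 5.53 on control and 5.30, 5.28 and 5.39 on MBD2 arrays, and the groups overlap. The difference was 0.05 with a 95% interval from -0.29 to 0.39 (adjusted p = 0.9 from limma), so that a change of over 1.5-fold lies outside the interval.

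Of the 24 probe sets of the 8 genes other than PTPRZ1, 1 was lower and 0 were higher in limma's test, against 0.978% lower and 0.898% higher among all 41091 probe sets. Before adjustment limma gave p below 0.05 for 5 lower and 0 higher probe sets, all of PTN or PTPRF, against 8.05% and 8.49% of all probe sets. The MBD2 arrays all lay below the controls in 5 and all above in 1, and the groups overlapped in the other 18. Among all probe sets 12.3% were below and 10.4% above. The median difference of the 24 was -0.02, and that of all probe sets was 0.00. The count of calls depended on the arrays used. Without MBD2 array 1 limma called 4 of the 24 lower, against 4.68% of all probe sets. With control array 3 and MBD2 array 1 omitted it called 10 lower, against 9.96%. Neither fit called a member higher, while of all 41091 probe sets they called 3616 and 6380 higher. The second fit keeps only the closely similar pair of each group, so its p-values measure the small spread within those pairs.

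**Figure D2:**
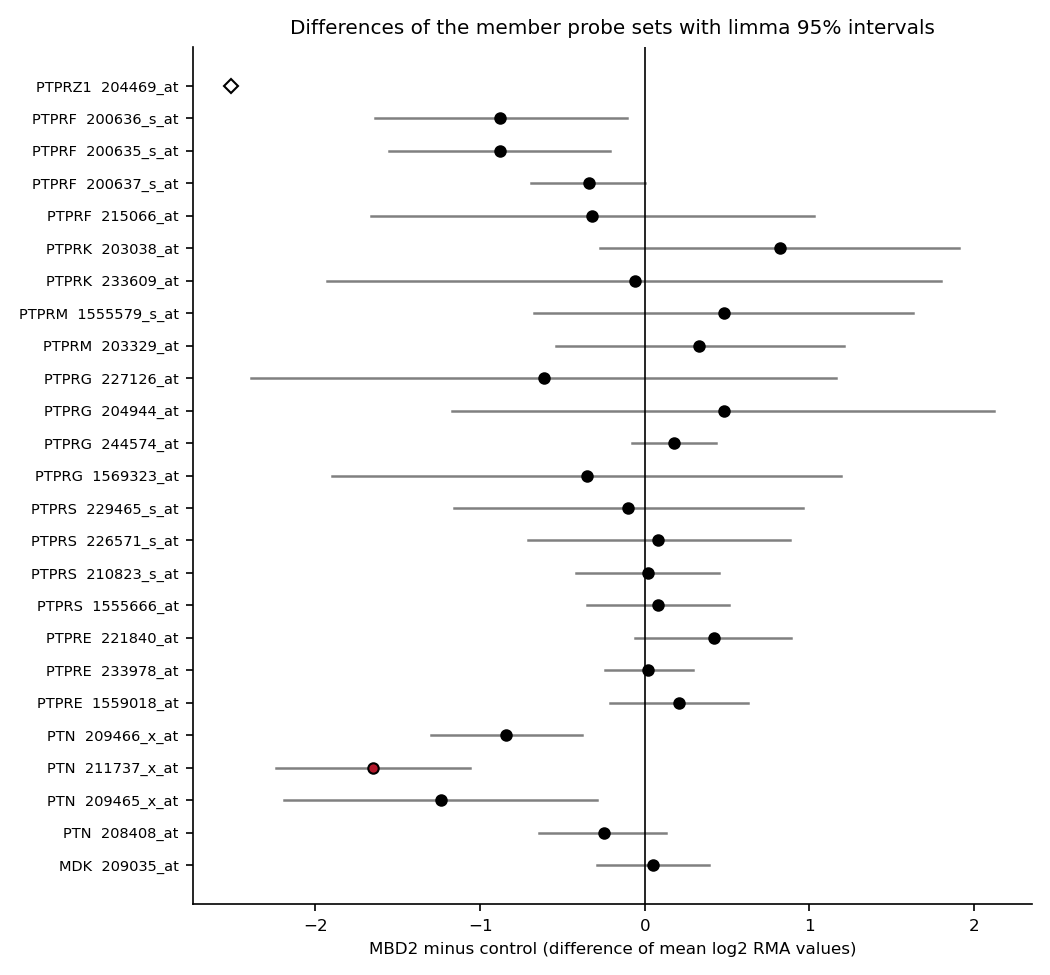
Difference of mean log2 RMA values, MBD2 minus control (horizontal axis), for each member probe set, with bars for the 95% interval from limma. The open diamond is PTPRZ1, shown without an interval, and the red point is the called PTN probe set 211737_x_at. PTPRZ1 lies at -2.51, that PTN probe set at -1.65, and every other member between -1.24 and 0.82.

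PTPRF, the LAR phosphatase, had 4 probe sets with differences from -0.88 to -0.32, none of which passed limma's test. The brightest, 200636_s_at, gave 12.57, 12.72 and 12.52 on control and 12.44, 11.31 and 11.42 on MBD2 arrays (difference -0.88, standard error 0.31, adjusted p = 0.247 from limma). MBD2 array 1 lay only 0.07 below the lowest control, whereas the other MBD2 arrays were over 1 log2 unit lower. The next, 200635_s_at, gave 9.60, 9.64 and 9.05 on control and 9.06, 8.25 and 8.33 on MBD2 arrays (difference -0.88, adjusted p = 0.199 from limma), and MBD2 array 1 again lay beside control array 3. The probe set 215066_at gave 6.66, 6.52 and 6.34 on control arrays and 7.48 on MBD2 array 1, above all of them, but 5.71 and 5.37 on MBD2 arrays 2 and 3. Without MBD2 array 1 these 3 probe sets were called lower, with adjusted p of 0.00525, 0.0238 and 0.0194 from limma and differences of -1.24, -1.13 and -0.97. In that fit 4.68% of all probe sets were called lower. With arrays blocked by hybridization signal, which sets MBD2 array 1 alone against the controls, the differences were -0.16, -0.37 and 0.97, and none passed. The remaining probe set, 200637_s_at, was the only one whose lowest value fell on MBD2 array 1 (7.41, 7.01 and 7.14 on control, 6.72, 6.88 and 6.94 on MBD2 arrays). PTPRS, of the same family, had differences between -0.10 and 0.08 in its 4 probe sets, with adjusted p of 0.862 to 0.976 from limma. Its brightest, 229465_s_at, gave 8.58, 8.31 and 7.46 on control and 8.77, 7.80 and 7.47 on MBD2 arrays, and both groups cover nearly the same range. Its 95% interval, from -1.16 to 0.96, leaves room for a 2-fold decrease.

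PTPRG, the closest relative of PTPRZ1, had 4 probe sets, and limma called none of them on the 6 arrays. Its brightest probe set, 227126_at, gave 9.26, 9.26 and 7.39 on control and 9.24, 7.63 and 7.21 on MBD2 arrays (difference -0.61, 95% interval -2.39 to 1.16, adjusted p = 0.729 from limma). Control array 3 lay with MBD2 arrays 2 and 3, and MBD2 array 1 with control arrays 1 and 2. A second one, 204944_at, gave 8.82, 8.77 and 6.42 on control and 8.85, 8.32 and 8.27 on MBD2 arrays (difference 0.48, adjusted p = 0.779 from limma), with control array 3 alone far below the rest. The dimmer 244574_at lay between 5.35 and 5.72 on all arrays, and 1569323_at was near background on 3 arrays. The difference changes sign among the 4 probe sets, and it depended on the arrays used. For 227126_at it was -1.23 without control array 3, -1.22 without MBD2 array 1 and 0.60 with arrays blocked by hybridization signal (adjusted p = 0.387, 0.266 and 0.782 from limma). Without both of these arrays 227126_at and 1569323_at were called lower (differences -1.84 and -1.33, adjusted p = 5.99e-05 and 0.00269 from limma). That fit called 9.96% of all probe sets lower. It keeps only the closely similar pair of each group, so its p-values measure the small spread within those pairs. A test of PTPRG against PTPRZ1 was not made.

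PTPRK and PTPRM, the adhesive phosphatases of epithelial contacts, followed single arrays more than the groups. The bright probe set of PTPRK, 203038_at, gave 12.11, 12.03 and 10.67 on control and 12.76, 11.93 and 12.59 on MBD2 arrays (difference 0.82, 95% interval -0.27 to 1.91, adjusted p = 0.423 from limma). Only control array 3 lay apart. The other, 233609_at, gave 6.21, 6.84 and 5.18 on control and 7.58, 5.13 and 5.33 on MBD2 arrays (difference -0.06). PTPRM gave 10.46, 10.42 and 9.21 on control and 11.29, 10.15 and 10.10 on MBD2 arrays with 1555579_s_at (difference 0.48, adjusted p = 0.661 from limma). Its second probe set, 203329_at, had 0.33, again with the lowest value on control array 3 and the highest on MBD2 array 1. PTPRE, the receptor with the short outer part, gave 8.34, 8.02 and 7.99 on control and 8.89, 8.37 and 8.33 on MBD2 arrays with 221840_at (difference 0.42, adjusted p = 0.354 from limma). Its other probe sets differed by 0.02 and 0.21, and the dimmest, 1559018_at, was near background on 5 arrays.

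The array pattern of the receptors was counted over all members, with limits chosen after the values were seen. Control array 3 was lower than both other controls by over 0.5 log2 units in 12 of the 25 probe sets, against 8.41% of all 41091. MBD2 array 1 was higher than both other MBD2 arrays by over 0.5 in 12 of the 25, against 10.2% of all. Both held in 8 probe sets, against 4.07% of all. These 8 were 3 of PTPRG, 2 of PTPRM and 1 each of PTPRF, PTPRK and PTPRS. PTPRZ1, PTPRE, PTN and MDK had none. The sets compared are unlike, since 8004 of the 41091 probe sets were near background on all arrays, against 0 of the members. The 25 also come from only 9 genes and are not independent. In 2 of the 25, 215066_at of PTPRF and 1569323_at of PTPRG, MBD2 array 1 lay above all controls and the other MBD2 arrays below all of them, against 4.11% of all. Of 8 fibroblast markers, 3 were highest by far on MBD2 array 1. DCN gave 12.57 there and between 7.59 and 9.74 on the others, LUM 9.63 against 4.03 to 8.03, and COL3A1 8.90 against 4.84 to 5.28. The other 5 did not follow that array: COL1A1 gave 10.60, 10.61 and 9.75 on the MBD2 arrays, COL1A2 5.92, 6.54 and 6.25, and PDGFRA, PDGFRB and THY1 were nearly level. The summed level of the 8, which DCN dominates, ranged from 10.18 to 10.95 on control and from 10.63 to 13.16 on MBD2 arrays, and none was near background on all arrays. The hybridization controls divide the MBD2 arrays in the same way, with array 1 at 10.96 against 9.94 and 10.01. The part of either in the receptor values was not tested. With control array 3 and MBD2 array 1 omitted together, limma called 10 member probe sets lower and 0 higher, 3 each of PTN and PTPRF, 2 of PTPRG and 1 each of PTPRK and PTPRS, among 4094 lower and 6380 higher of all.

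**Figure D3:**
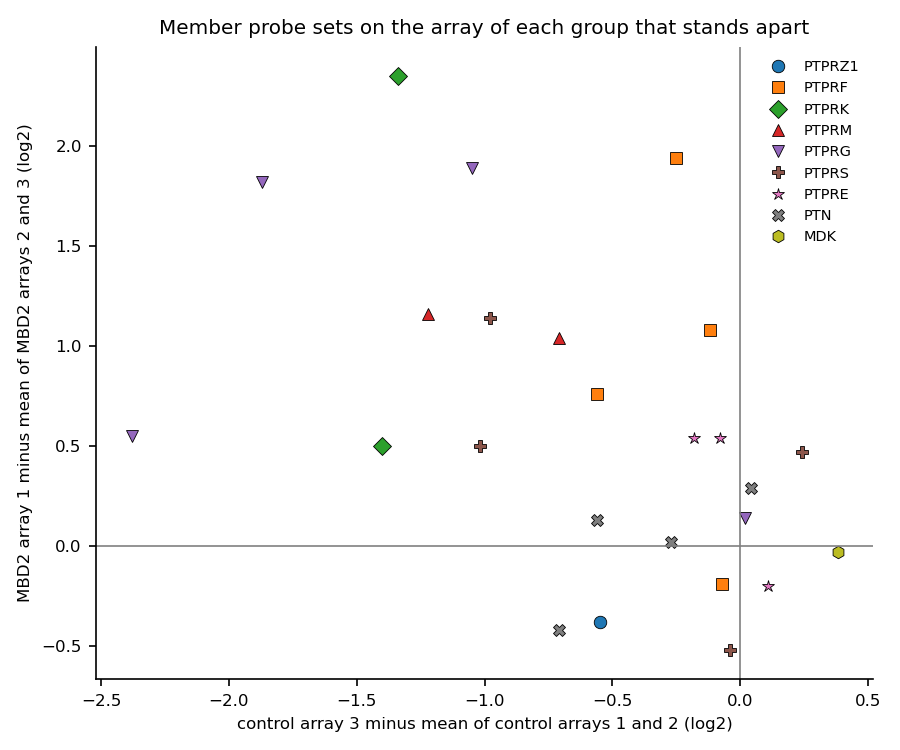
For each member probe set, the value on control array 3 minus the mean of control arrays 1 and 2 (horizontal axis) against the value on MBD2 array 1 minus the mean of MBD2 arrays 2 and 3 (vertical axis), in log2 units, with 1 symbol per gene. Probe sets of PTPRG, PTPRK and PTPRM lie at the upper left, low on control array 3 and high on MBD2 array 1, while PTPRZ1 lies at -0.55 and -0.38.

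The other genes of receptor phosphatase signalling were taken from 5 lists, of which 79 of 83 genes were measured, by 238 probe sets. Of these probe sets 1 was lower and 3 were higher in limma's test, against 0.978% and 0.898% of all probe sets, and the median difference was 0.02. Leaving out control array 1, control array 2, MBD2 array 2 or MBD2 array 3 removed all 4 calls. In that order these fits called 20, 18, 67 and 37 of all probe sets lower, against 402 with every array. They called 3, 2, 32 and 10 of all probe sets higher, against 369. The other receptor-type phosphatases (10 of 12 genes, 27 probe sets) held 0 calls. Limma's p before adjustment was below 0.05 for 2 lower and 1 higher, against 8.05% and 8.49% of all probe sets. Of the 27 probe sets of this list 13 were near background on all arrays, among them all those of PTPRC, the leukocyte phosphatase CD45. The largest differences were those of PTPRO, first described in kidney podocytes, whose bright probe set 211600_at gave 12.33, 12.01 and 11.97 on control and 12.81, 9.63 and 9.71 on MBD2 arrays (difference -1.39, adjusted p = 0.487 from limma). MBD2 array 1 was above all controls and the other MBD2 arrays were below them. Another PTPRO probe set, 1554199_at, had the opposite sign (difference 0.93, adjusted p = 0.39 from limma).

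Among the non-receptor phosphatases (16 of 16 genes, 55 probe sets), 1 probe set was higher and 0 were lower. Limma's p before adjustment was below 0.05 for 10 higher and 1 lower, against 8.49% and 8.05% of all probe sets. The called one belongs to PTPN21, which carries a domain that binds membrane and cytoskeleton, and gave 6.32, 6.30 and 6.20 on control and 7.75, 7.31 and 7.56 on MBD2 arrays with 226380_at (difference 1.27, standard error 0.14, adjusted p = 0.02 from limma). All MBD2 values were above all control values, while the other probe sets of the gene had 0.06 to 0.60. PTPN13, a large phosphatase with PDZ domains that was chosen after its values were seen, gave 9.12, 9.19 and 9.84 on control and 7.78, 8.30 and 7.88 on MBD2 arrays with 204201_s_at (difference -1.39, adjusted p = 0.0573 from limma). These groups do not overlap, whereas for 243792_x_at of the same gene they did (difference -1.54, adjusted p = 0.355 from limma).

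The other receptors of pleiotrophin and midkine (11 of 11 genes, 28 probe sets) held 1 lower and 0 higher. Limma's p before adjustment was below 0.05 for 4 lower and 1 higher, against 8.05% and 8.49% of all probe sets. The called probe set was 201287_s_at of SDC1, the heparan sulfate proteoglycan syndecan-1. It gave 12.07, 11.93 and 11.91 on control and 11.25, 11.41 and 11.26 on MBD2 arrays (difference -0.67, standard error 0.10, adjusted p = 0.0445 from limma). The decrease of 1.59-fold was small but larger than the spread within either group. The second SDC1 probe set had -0.58 (adjusted p = 0.0726 from limma). ALK, a receptor tyrosine kinase proposed as a pleiotrophin receptor, had -0.20 and 0.00 in its probe sets.

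Of the ligands and binding partners of the receptors (24 of 24 genes, 61 probe sets) 0 were called. Limma's p before adjustment was below 0.05 for 6 lower and 7 higher, against 8.05% and 8.49% of all probe sets. The largest differences of this list were those of THBS1, which encodes the matrix protein thrombospondin-1, a ligand of PTPRJ. With 235086_at it gave 8.81, 8.64 and 4.85 on control and 11.49, 11.04 and 11.73 on MBD2 arrays (difference 3.99, adjusted p = 0.153 from limma). Each MBD2 array was above every control by over 2 log2 units, and control array 3 was the lowest by far. Another probe set, 201109_s_at, had 3.03 with the same order of groups (adjusted p = 0.268 from limma). In the opposite direction SLITRK5, a neuronal adhesion protein that binds PTPRD and that was chosen after its values were seen, gave 8.49, 8.77 and 7.80 on control and 6.86, 5.85 and 5.76 on MBD2 arrays with 214930_at (difference -2.19, adjusted p = 0.0573 from limma). Its groups did not overlap.

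Of the intracellular partners and substrates (18 of 20 genes, 67 probe sets) 2 were higher and 0 were lower. Limma's p before adjustment was below 0.05 for 11 higher and 4 lower, against 8.49% and 8.05% of all probe sets. FYN, a kinase of the SRC family that is a substrate of PTPRZ1, gave 4.90, 5.07 and 4.63 on control and 6.53, 5.88 and 6.61 on MBD2 arrays with 216033_s_at (difference 1.47, standard error 0.23, adjusted p = 0.0464 from limma). Further probe sets of FYN had 1.70 and 1.22 (adjusted p = 0.117 and 0.203 from limma), and the remaining 1559101_at and 243006_at had -0.24 and 0.00. TRIO, the exchange factor first found as a partner of LAR, gave 5.02, 5.13 and 4.70 on control and 6.17, 6.33 and 6.72 on MBD2 arrays with 208178_x_at (difference 1.45, standard error 0.19, adjusted p = 0.0313 from limma). For the called probe sets of both genes, every MBD2 value was above every control value. TRIO probe sets with differences of 1.21, 0.95 and 0.83 did not pass (adjusted p = 0.0651, 0.165 and 0.337 from limma), and the remaining ones had -0.04, 0.03, 0.19, 0.36 and 0.46. Those of TRIO with 0.03, 0.19 and 0.36 were near background on 6, 4 and 5 arrays. The probe sets of both genes thus disagree, also among those not near background.

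**Figure D4:**
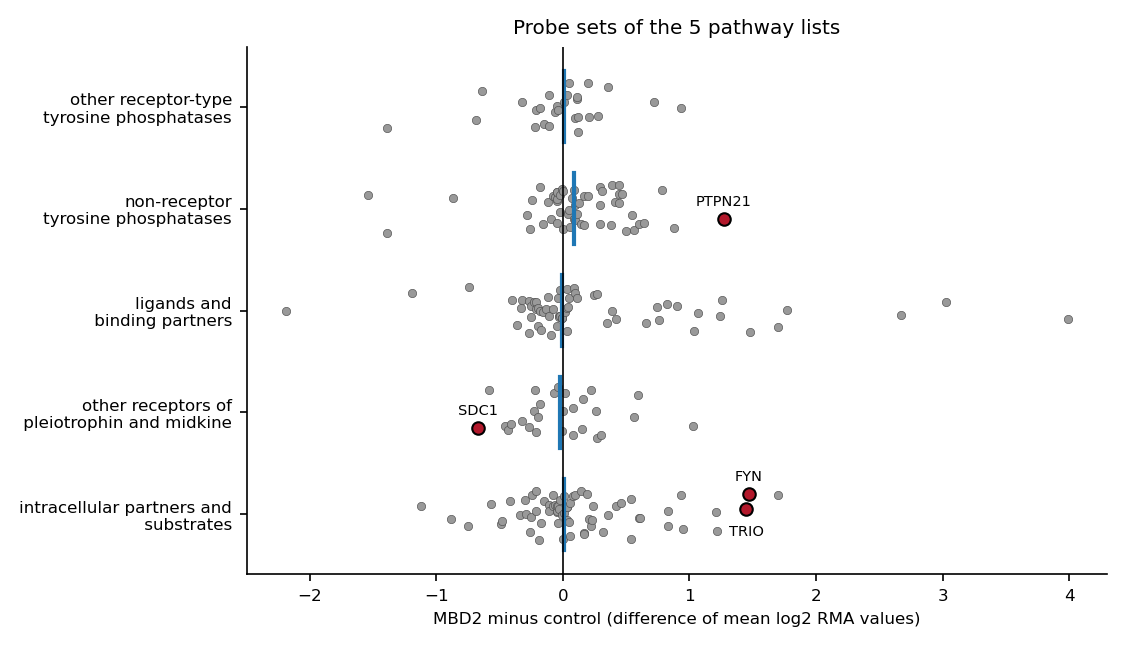
Difference of mean log2 RMA values, MBD2 minus control (horizontal axis), for the 238 probe sets of the 5 lists (rows), with called probe sets in red and named, and a blue line at the median of each list. The medians lie between -0.02 and 0.09, and the grey points farthest to the right, at 3.03 and 3.99, are THBS1.

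The 5 genes whose profile over the 6 arrays was most like that of PTPRZ1 were found by the root mean square difference after each profile was centred on its own mean, with the brightest probe set of each gene. They were BCL11B, a zinc finger transcription factor of skin and T cells (0.19 log2 units), PTGS1, which encodes cyclooxygenase 1 (0.25), PPL, the desmosomal and cornified envelope protein periplakin (0.27), CCDST (0.28) and CXCL16, a membrane-bound chemokine (0.29). BCL11B gave 8.91, 8.95 and 8.78 on control and 6.29, 7.14 and 6.34 on MBD2 arrays. As for PTPRZ1, its highest MBD2 value was on array 2. The differences of the 5 genes ran from -2.94 to -2.29, and since the profile was matched on these same arrays they carry no test.

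**Figure D5:**
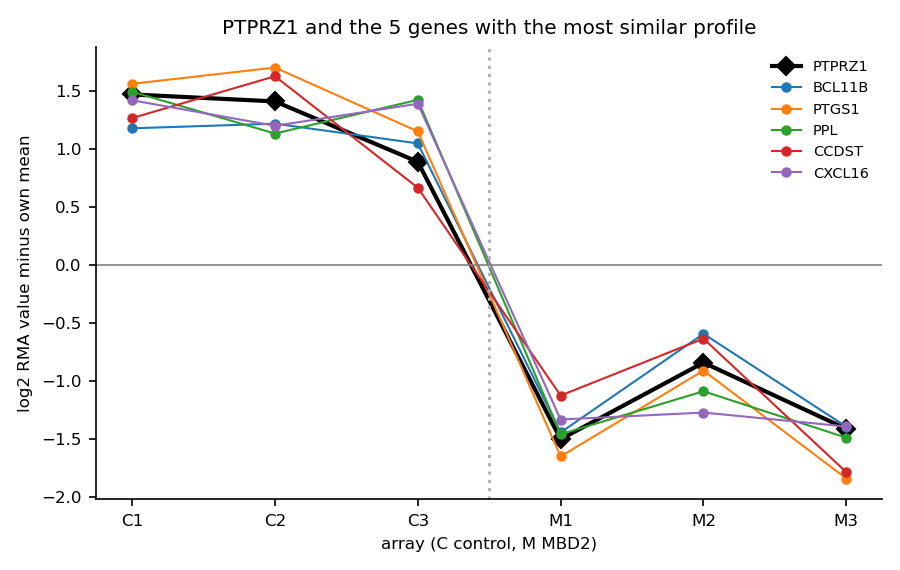
Log2 RMA value minus its own mean over the 6 arrays (vertical axis) for PTPRZ1 (black diamonds) and the 5 genes with the smallest root mean square difference from it, on control arrays (C1 to C3) and MBD2 arrays (M1 to M3). Lines only join the points of a gene. The 6 profiles stay above 0 on control and below 0 on MBD2 arrays, with differences between groups of -2.94 to -2.29.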

How the data were processed

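The authors deposited log2 values for 54675 probe sets on each array. RMA and affy are named, with no version, in the processing notes of the submitters. RMA corrects background, equalizes the distribution of intensity over the arrays and summarizes probes, so that differences can be compressed in dim probe sets. Probe sets were named by the platform table, and 19735 of 19777 Entrez identifiers were in the RefSeq gene table. Of the probe sets 41091 had a single symbol, 1801 had several and 11721 had none. The 62 array controls were left out of the tests. Groups followed the treatment label.

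All probe sets with 1 symbol were fitted by limma 3.58.1 (R 4.3.3), using lmFit on group alone and eBayes, whose prior had 1.95 degrees of freedom. Benjamini-Hochberg adjustment ran over all of them, with no filter on dim probe sets. For the arrays the study's methods give a rule of fold change in each sample and name no test. Its results mention a p threshold without naming the test behind it. Alternatives changed the probe set unit, filter, scaling, variance model, call rule, blocks and arrays used. The members, lists and alternatives were chosen with earlier results of these data known. Genes were named by rule: all members, the called genes of each list (up to 6), the 2 largest differences of a list with no call, the 5 profiles nearest to PTPRZ1, and MBD2. Others are marked as chosen later. The housekeeping list served only for centring. Of the other marker lists, HEK293 genes had summed log2 levels of 6.26 to 6.38 on control and 6.29 to 6.40 on MBD2 arrays, endothelial genes 7.64 to 7.83 and 7.62 to 7.69, leukocyte genes 10.19 to 10.99 and 8.35 to 9.07, glial genes 9.71 to 9.83 and 8.78 to 9.32, and luminal genes 10.53 to 10.88 and 11.03 to 12.14. Single bright genes carry such sums: the leukocyte difference is mainly that of CD14 (-3.07, the other 5 genes -0.18 to -0.01) and the glial one mainly that of MBP (-0.94, the others -0.22 to 0.12). The number of arrays limits the precision.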

Additional observations from a re-analysis of the deposited data

How the results depend on the processing

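The decrease of PTPRZ1 kept its direction and moved by less than 1 SD under every alternative run for it, from -2.71 to -2.38 when single arrays were left out and -2.76 with the hybridization level as a block. PTPRZ1 was picked for this decrease on these same arrays, so these values are a description and no test of it. Leaving aside PTPRZ1, which carries no test, no member probe set was called higher under any alternative. With 1 probe set per gene, where PTN is represented by 209466_x_at, 0 member probe sets were lower, and the lists held 2 lower and 1 higher. Of all 19775 in that fit 296 were lower and 248 higher. Leaving out names that end in _s_at, _x_at or _a_at, which drops the called PTN probe set, gave 0 members lower, 0 lower and 1 higher in the lists, and among all probe sets 246 lower and 245 higher. The lists held 2 lower with a mean of at least 5 or with housekeeping centring, and 0 lower with trend and robust fitting or a fold of at least 2. In that order 434, 342, 287 and 324 of all probe sets were lower, of 24650 tested in the first setting and 41091 in the others. By the methods' rule of a fold in each array, 2 member probe sets were lower, both of PTN, the lists held 2 lower and 13 higher, and of all probe sets 575 were lower and 1230 higher. That rule asks for less of a rise (over 1.5-fold) than of a fall (under 0.5 times), so its counts show no direction.

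With each array left out in turn, limma called 0 to 4 member probe sets lower, 0 to 13 lower and 0 to 16 higher in the lists, and 18 to 1924 lower and 2 to 3616 higher of all. The highest counts came without MBD2 array 1. With both control array 3 and MBD2 array 1 left out these were 10 members, 25 and 34 in the lists, and 4094 and 6380 of all. With closely similar arrays averaged all of these counts were 0, and 2747 probe sets had p below 0.05 before adjustment, against 6796 without averaging. With the hybridization level as a block, which compares MBD2 array 1 alone with the controls, 0 members and 248 lower and 222 higher of all were called. The causes were not tested beyond what each setting removes.

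The replicate number as a block left 0 members, 0 lower and 0 higher in the lists, and 23 lower and 1 higher of all. The numbers do not pair the arrays: deviations of same-numbered arrays correlated at 0.21, -0.33 and 0.28. The 3 arrays a group limit the precision, and probe sets near the background level of 3.67 can understate a change.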
